A study of Mus musculus with 6 samples.

Results

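The Rab genes were described in RNA sequencing of mouse splenic CD3+ T cells, activated for 24 h with antibodies to CD3 and CD28 either alone (TCR alone, 3 samples) or with the small molecule DMGV at 100 ng/ml (TCR+DMGV, 3 samples). All cells were labelled wild type, and both groups received the activating antibodies. The labels name biological replicates of the cells without saying whether each came from its own mouse. They name the compound DMGV (dimethylguanidino valeric acid), whereas the text of the study on this sequencing names LNY1, the preparation it relates to asymmetric and symmetric dimethylarginine. The members were all genes with a protein-coding symbol made of Rab and a number, with at most 1 letter and 1 further number. They came to 59 of the 52550 genes in the deposited table and had 240 of its 131146 transcripts. The family was selected with the lower level of Rab7 in TCR+DMGV already seen in these samples, so every difference of a member between the groups is given as a description. Counts of members past a p threshold are printed only beside the share of all genes or transcripts past it, and nothing is read from them. Counts summed over all genes ranged from 37758725 to 43718867 per sample.

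Rab proteins are small GTPases that mark the membranes of the cell. Each is active when bound to GTP, is drawn from its membrane by a GDP dissociation inhibitor when bound to GDP, and recruits effectors that tether, move or fuse vesicles. A lipid added to cysteines at the end of the protein holds it on the membrane. In T cells, Rab proteins carry receptors and signalling molecules to the immunological synapse, and Rab27a docks the lytic granules of cytotoxic cells. Rab7 takes over from Rab5 as an early endosome matures, and directs the fusion of late endosomes and autophagosomes with lysosomes.

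The sequences shown are the coding ends that define the lipid site and, further below, the DNA before the start sites of Rab7. The coding end of each of the 59 genes was read from a coding transcript with a start and a stop codon (GENCODE M21, GRCm38). For the 43 members that passed edgeR's filter on low counts, this was the one with most counts. For the others it was the one with the longest coding sequence. The last 30 coding bases, stop codon included, are given for 6 members that differ in this site. Capitals mark in-frame cysteine codons.
Rab7: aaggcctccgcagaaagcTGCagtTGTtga
Rab27a: gagaaggagaaggggttgTGTggcTGTtga
Rab10: gtgacgggctggaagagcaagTGCTGCtga
Rab5c: gccagccggagccagTGCTGCagcaactga
Rab8b: accagtttcttccgcTGTtctctgctttga
Rab8a: accagcttcttccggTGCagtctcctgtga
Rab7 and Rab27a have 2 cysteine codons parted by another codon at the very end, as 20 members did. Rab10 ends in 2 adjacent cysteine codons, as 15 members did. In Rab5c the pair is followed by 2 further codons. Rab8a and Rab8b have 1 cysteine codon in the fourth place from the end, as 8 members did, which is the form taken by proteins with a single lipid. Over all 59 members, 50 had 2 cysteine codons among the last 5 and 8 had 1, and the leading transcript of Rab18 had 0. The coding sequence of the members ranged from 585 to 2922 bases with a median of 648, and that of Rab7 had 624.

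Activated T cells held RNA of most of the family, and a few members carried most of it. Of the 59 genes, 53 had a count in at least 1 sample and 43 passed edgeR's filter on low counts. A mean of at least 1 FPKM was reached by 36. FPKM, the deposited scale used here to compare genes, is fragments scaled to a length per gene and to the sample's total. How that length was set is not given, so levels of different genes compare only roughly. The 10 highest members held between 72.1% and 74.4% of the summed Rab FPKM of a sample. The members' counts together were 0.248% to 0.295% of all counts. The members at 0 counts in every sample were 6, namely Rab3b, Rab3c, Rab7b, Rab9b, Rab38 and Rab40b. A count of 0 allows a level of up to 3 counts, which is 0.0686 to 0.0795 per 1000000 counts of a sample (counting error only). The other 10 members below the filter (Rab13, Rab15, Rab17, Rab25, Rab26, Rab27b, Rab30, Rab36, Rab42 and Rab44) had at most 19 counts in any sample.

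**Figure D1:**
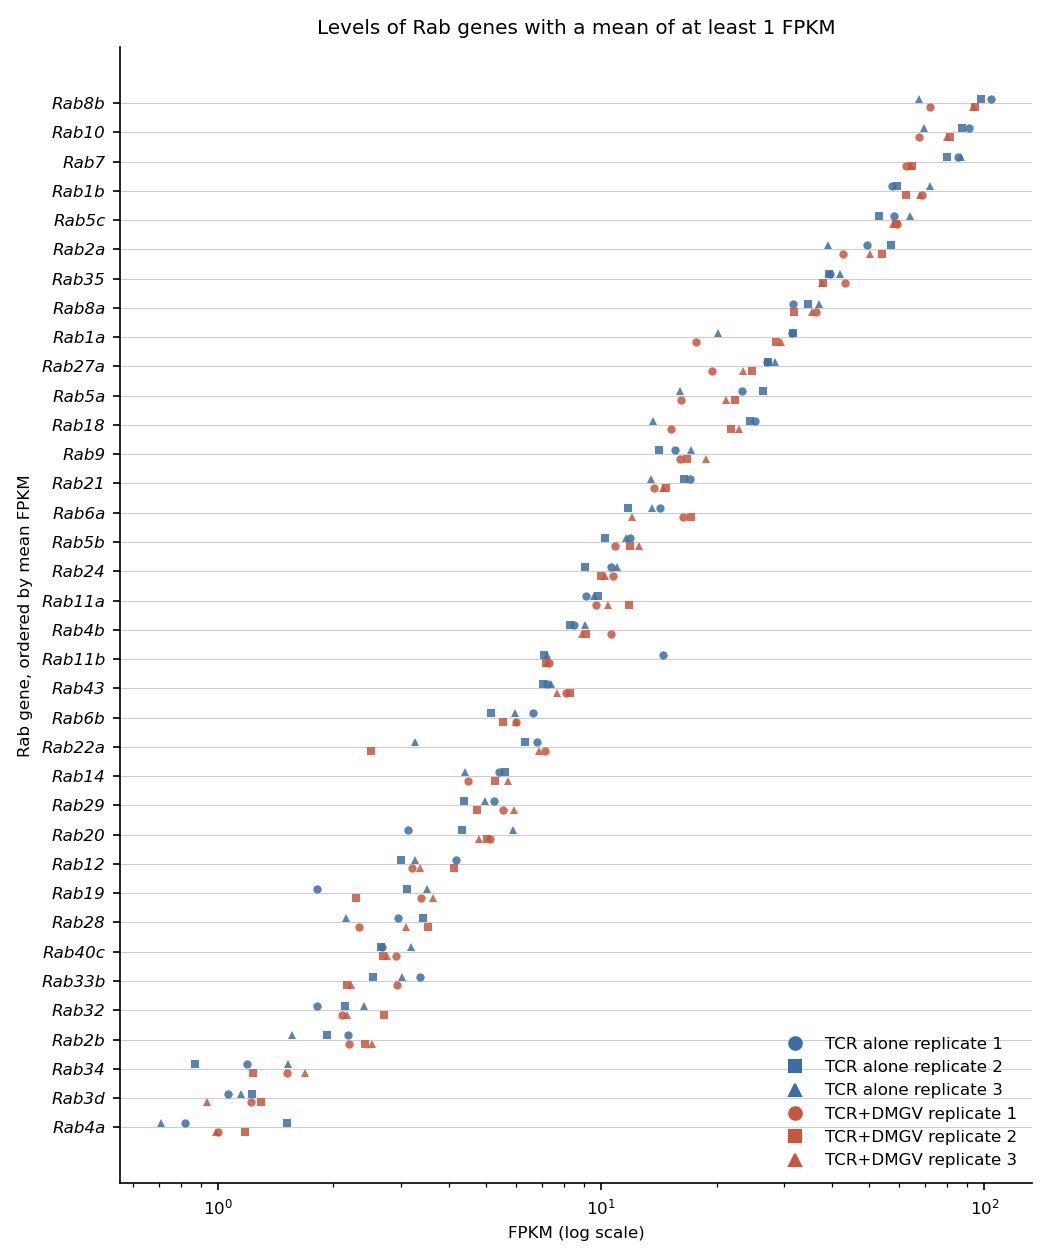
FPKM (log axis) of the 36 Rab genes with a mean of at least 1 FPKM, ordered by mean, 1 point per sample (blue, TCR alone; red, TCR+DMGV; the symbol gives the replicate). Rab8b, Rab10 and Rab7 are at the top, and the 3 TCR+DMGV points of Rab7 lie between 62.5 and 64.9, left of all its TCR alone points.

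Rab8b, which takes part in transport from the Golgi to the cell surface, had the highest mean of the family, 88.2 FPKM. Its values were 104, 97.7 and 67.4 FPKM in TCR alone replicates 1 to 3 and 72.2, 94.8 and 93.5 FPKM in TCR+DMGV replicates 1 to 3. Rab10, which drives delivery of vesicles to the plasma membrane, had 91.3, 87.7 and 69.4 FPKM in TCR alone and 67.5, 81.4 and 80.1 FPKM in TCR+DMGV. For both genes the low samples were TCR alone replicate 3 and TCR+DMGV replicate 1, and the groups overlapped. Rab7 came next with a mean of 74.0 FPKM, and its values were 85.2, 79.8 and 87.2 FPKM in TCR alone and 62.5, 64.9 and 64.5 FPKM in TCR+DMGV. It held 10.4% to 12.3% of the Rab FPKM of a TCR alone sample and 8.68% to 9.20% of that of a TCR+DMGV sample.

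Rab1b, which acts between the endoplasmic reticulum (ER) and the Golgi, had 57.4, 59.1 and 72.1 FPKM in TCR alone and 68.8, 62.4 and 67.8 FPKM in TCR+DMGV. Rab5c, one of the Rab5 proteins of the early endosome, had 58.2, 53.0 and 64.05 FPKM in TCR alone and 59.1, 58.9 and 57.8 FPKM in TCR+DMGV. Rab2a, which also serves the ER and Golgi, had 49.4, 57.1 and 39.2 FPKM in TCR alone and 42.8, 53.9 and 50.4 FPKM in TCR+DMGV. In these 3 genes the groups overlapped. Rab35, a Rab of fast recycling to the plasma membrane, was among the steadiest, with 39.5, 39.2 and 42.1 FPKM in TCR alone and 43.4, 37.9 and 37.8 FPKM in TCR+DMGV. Rab8a had 31.6, 34.6 and 36.9 FPKM in TCR alone and 36.4, 31.9 and 35.5 FPKM in TCR+DMGV. Rab1a had 31.4, 31.6 and 20.1 FPKM in TCR alone and 17.7, 28.7 and 29.5 FPKM in TCR+DMGV, with the same low samples as Rab8b and Rab10. Rab27a closed the first 10 with 27.1, 27.2 and 28.4 FPKM in TCR alone and 19.5, 24.8 and 23.4 FPKM in TCR+DMGV. In this order, Rab35 exceeded Rab8a and Rab8a exceeded Rab1a in 6 of 6 samples. Each other neighbouring pair changed places in 1 or 2 samples, so its order lay within the spread of the samples.

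By role, members of secretion and exocytosis held 31.2% of the mean Rab FPKM, those of the ER and Golgi 26.9%, those of the early endosome 16.6%, those of the late endosome and lysosome 13.7% and those of the recycling endosome 10.0%. The 5 members with other or less studied roles held 1.49%. Of the 8 members assigned to the late endosome, lysosome and related organelles, Rab7 was by far the highest. Rab9, which returns receptors from late endosomes to the Golgi, had a mean of 16.4 FPKM, and Rab7b, Rab9b and Rab38 were at 0.

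Where several genes share a number, the levels were compared within samples by an exact two-sided sign-flip permutation test over the 6 samples on log2(FPKM + 0.1), with Benjamini-Hochberg adjustment over the 9 pairs with both means at or above 1 FPKM. Levels between genes were not used to choose the family. In 8 of the 9 pairs 1 gene was higher in 6 of 6 samples (adjusted p = 0.0352 in the exact test for each, where 0.03125 is the smallest unadjusted p that 6 samples allow). Rab5c, at 58.5 ± 3.52 FPKM (SD, n = 6), was 2.83-fold above Rab5a at 20.9 ± 4.10 FPKM and 5.06-fold above Rab5b at 11.5 ± 0.822 FPKM, and Rab5a was 1.79-fold above Rab5b. Rab1b was 2.48-fold above Rab1a, Rab8b was 2.53-fold above Rab8a and Rab6a, at 14.2 ± 2.19 FPKM, was 2.37-fold above Rab6b at 5.87 ± 0.493 FPKM. The gap was widest between Rab2a and Rab2b, at 21.9-fold, and Rab4b, at 9.09 ± 0.828 FPKM, was 8.28-fold above Rab4a at 1.03 ± 0.282 FPKM. These folds are ratios on the log2(FPKM + 0.1) scale. The folds, the orders and the test all depend on the length that FPKM uses for each gene. A length set wrongly would act alike in all 6 samples, so the test shows only that an order was steady across samples. It cannot tell whether 1 gene of a pair had more RNA.

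By sample, Rab5a had 23.3, 26.4 and 16.1 FPKM in TCR alone and 16.1, 22.4 and 21.2 FPKM in TCR+DMGV. Rab5b had 11.9, 10.2 and 11.6 FPKM in TCR alone and 10.8, 11.9 and 12.5 FPKM in TCR+DMGV. The highest Rab5b value was thus below the lowest Rab5a value in FPKM. In CPM (counts scaled to the TMM-adjusted size of each library, with no length), Rab5a had 61.2, 71.2 and 41.5 in TCR alone and 41.9, 60.2 and 57.5 in TCR+DMGV. Rab5b had 55.6, 49.3 and 53.4 CPM in TCR alone and 50.2, 57.1 and 60.5 CPM in TCR+DMGV. The CPM ranges of the 2 genes overlapped, so their order in FPKM rests on the length used. Rab6a had 14.3, 11.8 and 13.5 FPKM in TCR alone and 16.3, 17.1 and 12.0 FPKM in TCR+DMGV, and Rab6b had 6.62, 5.16 and 5.94 FPKM in TCR alone and 5.98, 5.53 and 5.99 FPKM in TCR+DMGV. Rab4a had 0.820, 1.51 and 0.712 FPKM in TCR alone and 1.001, 1.17 and 0.987 FPKM in TCR+DMGV, while Rab4b lay between 8.29 and 10.6 FPKM. Neither of these pairs came near to overlapping.

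Below the first 10, Rab18, a Rab of the ER and of lipid droplets, ranged from 13.7 to 25.2 FPKM over the 6 samples. Rab21, which recycles integrins from early endosomes, ranged from 13.5 to 17.1 FPKM. Rab24, a Rab linked to autophagy, ranged from 9.09 to 11.0 FPKM and Rab14, between the Golgi and endosomes, from 4.399 to 5.70 FPKM. Rab29, Rab20, Rab12, Rab19, Rab28, Rab40c, Rab33b, Rab32, Rab2b, Rab34 and Rab3d had means between 1.15 and 5.13 FPKM. The members that passed the filter with a mean under 1 FPKM were Rab33a, Rab37, Rab31, Rab23, Rab3a, Rab39b and Rab39, at 0.102 to 0.942 FPKM.

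The pair that did not pass was Rab11a and Rab11b, both Rabs of the recycling endosome (exact permutation test, adjusted p = 0.188, mean ratio 1.24-fold, higher for Rab11a in 5 of 6 samples). Rab11a had 9.12, 9.82 and 9.55 FPKM in TCR alone and 9.71, 11.8 and 10.4 FPKM in TCR+DMGV. Rab11b had 14.5, 7.11 and 7.20 FPKM in TCR alone and 7.31, 7.17 and 7.20 FPKM in TCR+DMGV, so TCR alone replicate 1 was the only sample in which it exceeded Rab11a. The counts of its transcript Rab11b-201 were 3558 in that sample and 1610 to 1977 in the others. Rab3a and Rab3d, of regulated exocytosis, were not compared because Rab3a had a mean of 0.432 FPKM. Its values were 0.516, 0.436 and 0.655 FPKM in TCR alone and 0.399, 0.220 and 0.368 FPKM in TCR+DMGV, against a range of 0.937 to 1.29 FPKM for Rab3d.

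Between the groups, Rab7 was lower in all TCR+DMGV samples. On the scale of CPM (counts scaled to the TMM-adjusted size of each library), it had 248, 239 and 249.5 CPM in TCR alone and 179.8, 193 and 194 CPM in TCR+DMGV. The gap between the groups was larger than the range within either one. The mean was 245 ± 5.83 CPM over the TCR alone samples and 189 ± 7.88 over the TCR+DMGV samples (SD, n = 3 each). The fitted log2 fold change was -0.38 with a standard error of 0.07, or 0.770 of the TCR alone level. Rab7 (ENSMUSG00000079477.9) lies on the reverse strand of chromosome 6 from 87999106 to 88045270 (GRCm38), and its deposited counts ran from 7672 to 10329. An antisense gene, Gm5577, overlaps its 3′ side over 6366 bases and had 494 to 555 counts in TCR alone and 577 to 663 counts in TCR+DMGV. The counting is not stated to have used strand, so reads within that overlap cannot be assigned to 1 gene.

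By the quasi-likelihood test of edgeR with an adjusted p under 0.05, 0 of the 43 tested members and 0.0135% of the 14786 genes tested were called. At an unadjusted p under 0.05 there were 0 members higher and 2 lower in TCR+DMGV, beside 1.63% of all genes higher and 1.56% lower. The 2 were Rab7 and Rab27a. DESeq2 called 1 member, Rab7, and 0.0854% of the genes for which it gave an adjusted p. The median log2 fold change of the tested members was 0.03, with 26 above 0 and 17 below, and that of all tested genes was 0.00. A change under 0.2 in size was fitted for 74.4% of the members and 68.5% of all genes. Because the family was put forward for a difference in this contrast, nothing is read from these counts.

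**Figure D2:**
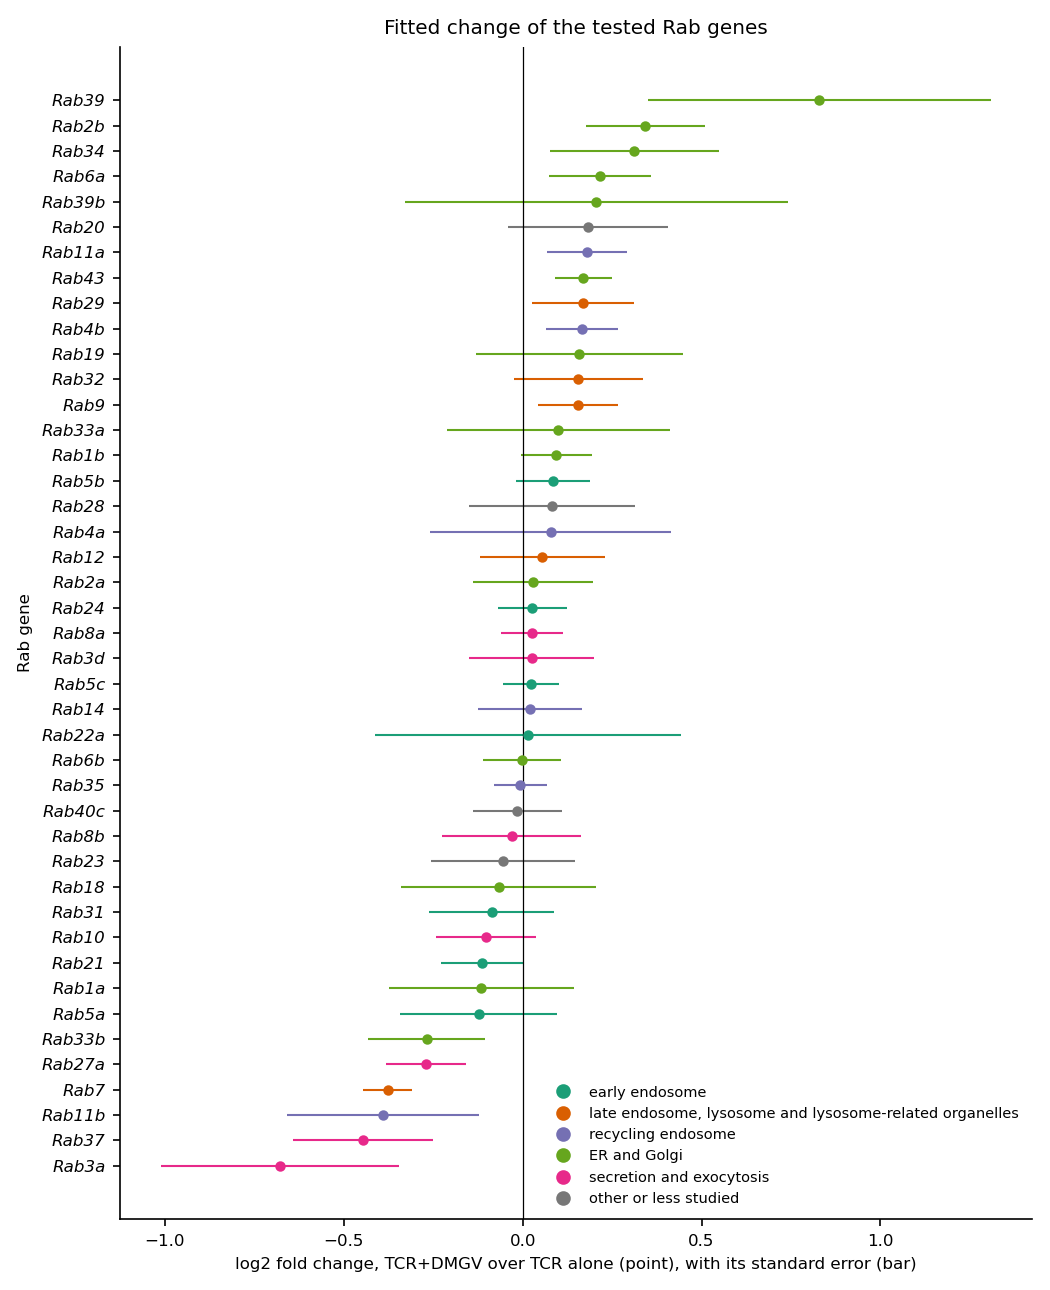
Fitted log2 fold change (TCR+DMGV over TCR alone) of the 43 tested Rab genes, coloured by role, with bars of 1 standard error. Rab7 at -0.38 has a short bar (0.07), whereas Rab39 and Rab39b, with few counts, have wide ones.

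Rab27a (ENSMUSG00000032202.11, chromosome 9 from 73044854 to 73097629, forward strand) had 117, 121 and 121 CPM in TCR alone and 83.2, 109.6 and 104 CPM in TCR+DMGV, a log2 fold change of -0.27 ± 0.11 (SE). Its groups did not overlap, and TCR+DMGV replicate 1 was the lowest sample. Without that sample the log2 fold change was -0.16. Rab37, a Rab of secretory granules, had 5.24, 6.27 and 7.68 CPM in TCR alone and 5.28, 4.71 and 4.09 CPM in TCR+DMGV, with a log2 fold change of -0.45 ± 0.20 (SE), and its groups overlapped through TCR alone replicate 1. Without TCR alone replicate 3, its highest sample, the value was -0.29. Rab11b had 98.5, 49.8 and 48.3 CPM in TCR alone and 49.3, 50.02 and 50.6 CPM in TCR+DMGV. Its log2 fold change of -0.39 ± 0.27 (SE) rested on TCR alone replicate 1, and was 0.01 without it. Rab33b, of the Golgi and of autophagosome formation, had 13.3, 10.3 and 11.7 CPM in TCR alone and 11.5, 8.78 and 9.03 CPM in TCR+DMGV (log2 fold change -0.27 ± 0.16, SE). Its groups overlapped through TCR+DMGV replicate 1. When single samples were left out, its value ran from -0.40 (without TCR+DMGV replicate 1) to -0.19 (without TCR alone replicate 1).

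Among the members with a mean log2 CPM above 1, the 5 highest fitted changes were those of Rab2b, Rab34, Rab6a, Rab20 and Rab11a. Rab2b had 10.2, 9.21 and 7.18 CPM in TCR alone and 10.1, 11.5 and 12.1 CPM in TCR+DMGV (log2 fold change 0.34 ± 0.17, SE). Without TCR alone replicate 3, its lowest sample, the value was 0.22. Rab34, a Golgi Rab, had 3.29, 2.47 and 4.03 CPM in TCR alone and 4.04, 3.44 and 4.69 CPM in TCR+DMGV (0.31 ± 0.24, SE). The groups of both overlapped. Rab6a, of retrograde transport to and through the Golgi, had 59.2, 50.3 and 55.3 CPM in TCR alone and 67.1, 72.8 and 51.6 CPM in TCR+DMGV (0.22 ± 0.14, SE). TCR+DMGV replicate 3 lay within the TCR alone range. Rab20, a Rab of phagosomes, had 4.87, 6.91 and 8.96 CPM in TCR alone and 7.86, 7.99 and 7.70 CPM in TCR+DMGV (0.18 ± 0.22, SE). Rab11a had 30.5, 33.7 and 31.4 CPM in TCR alone and 32.1, 40.3 and 35.9 CPM in TCR+DMGV (0.18 ± 0.11, SE). Both overlapped between the groups. When single samples were left out, the log2 fold change ran from 0.14 (without TCR alone replicate 2) to 0.50 (without TCR alone replicate 3) for Rab34 and from 0.11 (without TCR+DMGV replicate 2) to 0.35 (without TCR+DMGV replicate 3) for Rab6a. It ran from -0.03 (without TCR alone replicate 1) to 0.42 (without TCR alone replicate 3) for Rab20 and from 0.09 (without TCR+DMGV replicate 2) to 0.26 (without TCR+DMGV replicate 1) for Rab11a.

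In 6 of the 43 tested members the CPM values of the groups did not overlap, 3 higher and 3 lower in TCR+DMGV. Over all tested genes 4.92% were higher and 3.94% lower in this sense. The lower ones were Rab7, Rab27a and Rab3a, which had 26 to 69 counts per sample. The higher ones were Rab43, Rab4b and Rab39, which had 8 to 24 counts. Rab43, of the ER and Golgi, had 44.5, 44.5 and 44.7 CPM in TCR alone and 49.3, 52.3 and 48.8 CPM in TCR+DMGV. Rab4b, of fast recycling, had 18.7, 18.8 and 19.7 CPM in TCR alone and 23.2, 20.6 and 20.3 CPM in TCR+DMGV. Gm21983 overlaps Rab4b on the same strand over 10467 bases. Gm21983 was given 116 counts (TCR alone replicate 1), 75 (TCR alone replicate 2), 4 (TCR+DMGV replicate 1) and 0 elsewhere. Rps6-ps3 does so for 750 bases of Rab39, with 213 to 330 counts per sample. Gm45140 does so for 23304 bases of Rab43, with 3 to 45. Whether the higher values of Rab4b, Rab39 and Rab43 rest on the division of reads between overlapping genes was not tested. By role, the median log2 fold change ran from -0.10 over 7 tested members of secretion and exocytosis to 0.16 over 5 of the late endosome and lysosome. In the second of these roles Rab7 was the only tested member with a value below 0. Rab9 had 30.4, 28.4 and 33.0 CPM in TCR alone and 31.0, 33.4 and 37.8 CPM in TCR+DMGV.

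Part of the spread within groups followed the base composition of the genes. TCR alone replicate 3 and TCR+DMGV replicate 1 were the only samples in which members with a higher GC content had higher values relative to the 6-sample mean (Pearson r across the 43 members 0.61 and 0.46, against -0.40 to -0.18 in the other 4). The same held over 9077 genes with a mean log2 CPM above 3 (0.53 and 0.37, against -0.42 to -0.10). The points of each r share 1 library, and no test was made. Of the 13 members with under 45% GC, Rab8b, Rab10 and Rab1a among them, 13 lay below their mean in TCR alone replicate 3 and 9 in TCR+DMGV replicate 1. Rab7 has 48.7% GC, and its log2 fold change was -0.39 after a GC correction and -0.33 without both of these samples. Rab22a, an early endosome Rab, departed from this pattern. It had 54.7, 52.2 and 25.8 CPM in TCR alone and 56.6, 20.6 and 56.9 CPM in TCR+DMGV, so that 1 sample of each group was low.

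**Figure D3:**
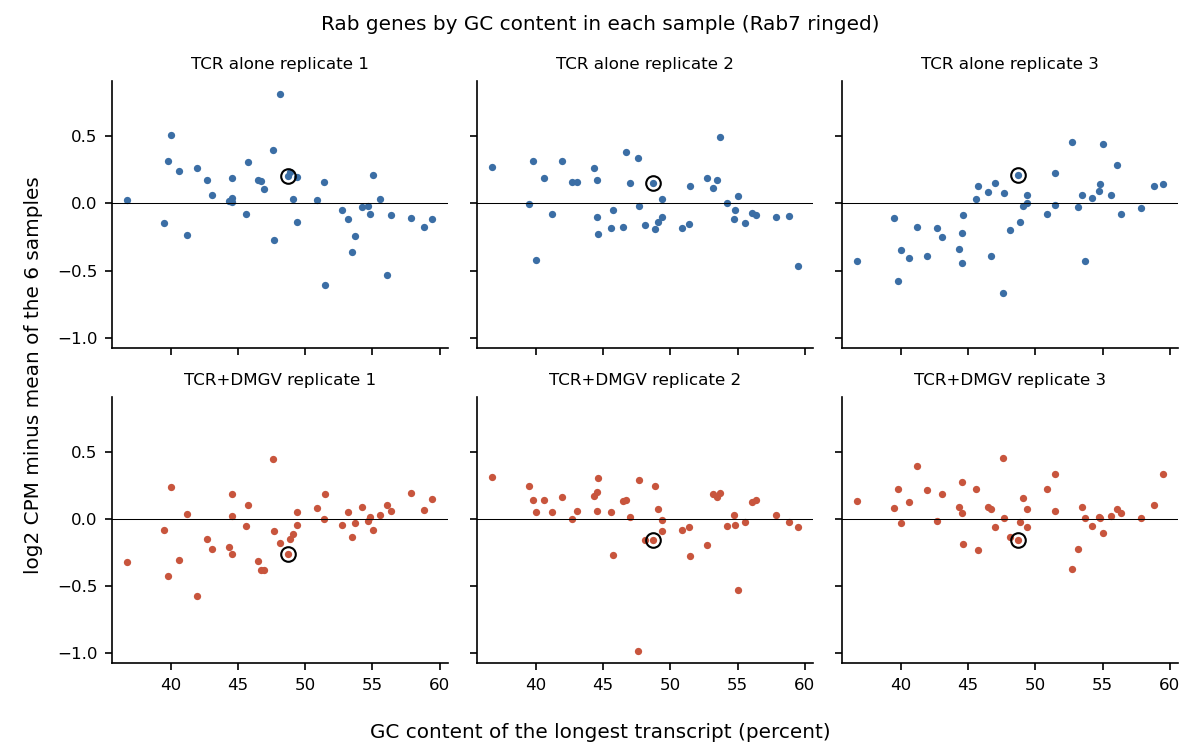
Deviation of each of the 43 tested Rab genes from its 6-sample mean (log2 CPM, vertical axis) against the GC content of its longest transcript (percent, horizontal axis), 1 panel per sample, with Rab7 ringed. The points rise with GC content in TCR alone replicate 3 and TCR+DMGV replicate 1, and Rab7 lies above 0 in the 3 upper panels and below 0 in the 3 lower ones.

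The counts of Rab7 were also divided differently among its transcripts. In TCR alone, Rab7-205 (ENSMUST00000113600.9) had counts of 9133, 9397 and 10206, and in TCR+DMGV of 5636, 7025 and 5999. In TCR alone, Rab7-204 (ENSMUST00000113598.7) had counts of 133, 190 and 11, and in TCR+DMGV of 2207, 1061 and 1493. The first was lower and the second higher in all TCR+DMGV samples. Rab7-201 had 0 counts in all TCR alone samples and 59, 78 and 55 counts in TCR+DMGV. Rab7-207 had 53, 109 and 103 counts in the TCR alone samples and 87, 120 and 98 in the TCR+DMGV samples, and Rab7-202, Rab7-203 and Rab7-206 had at most 89 in any sample. Rab7-201, Rab7-204 and Rab7-205 encode the same 624 coding bases.

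These transcripts differ in the first exon, and their start sites separate them on the genome. The first exon of Rab7-205 spans 88045073 to 88045270 on chromosome 6 (GRCm38), and that of Rab7-204 spans 88044937 to 88045017. The 2 starts are 253 bases apart, with 55 bases between the exons. Rab7-201 and Rab7-203 begin far downstream, in an exon from 88019636 to 88019783. The 3′ ends of Rab7-204 and Rab7-205 differ by 11 bases, so the division of counts between them rests almost wholly on reads in these first exons. The DNA before each start that lies in no annotated Rab7 exon is given from RefSeq promoters (GRCm38.p6, reverse strand, 5′ to 3′), the first of 250 bases on chr6:88045271-88045520 and the second of 55 bases on chr6:88045018-88045072. Capitals mark matches, on either strand, to the motif CCAAT (the CCAAT box), to the motif GGGCGG (the GC box), to the motif CACGTG (an E-box) or to the motif TATAAA (the TATA box).
Before the start of Rab7-205: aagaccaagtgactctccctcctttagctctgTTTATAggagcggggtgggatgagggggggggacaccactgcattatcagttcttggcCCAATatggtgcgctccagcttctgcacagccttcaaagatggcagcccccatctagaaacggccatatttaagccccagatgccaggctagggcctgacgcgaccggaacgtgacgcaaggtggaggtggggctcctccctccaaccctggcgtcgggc
Before the start of Rab7-204: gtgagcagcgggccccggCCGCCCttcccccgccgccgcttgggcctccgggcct
The first stretch has 59.2% GC and 10 CpG dinucleotides, with 1 match to the CCAAT box and 1 to the TATA box, the latter on the other strand and near the far end. The second has 83.6% GC and 7 CpG dinucleotides, with 1 match to the GC box. It follows directly on the first exon of Rab7-205 and opens with gt, the usual start of an intron. Promoters in RefSeq were found for 48 of the 59 members. Over the 250 bases before all 32851 starts, the CCAAT box was found in 33.8%, the GC box in 32.7%, the E-box in 6.02% and the TATA box in 12.4%. Over the 60 starts of Rab genes the shares were 40%, 66.7%, 8.33% and 6.67%. A match describes the letters only.

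Grouped by first exon, transcripts starting in the exon of Rab7-205 had 244, 234 and 249 CPM in TCR alone and 129, 166 and 155 CPM in TCR+DMGV. Those starting in the exon of Rab7-204 had 3.502, 4.66 and 0.266 CPM in TCR alone and 49.6, 24.6 and 37.7 CPM in TCR+DMGV. The difference between the groups in the first class of transcripts was larger than that of the gene as a whole, and the second class differed in the opposite direction. As a share of Rab7 counts, the exon of Rab7-204 held 1.16% ± 0.948 in TCR alone and 19.9% ± 7.43 in TCR+DMGV (SD, n = 3 each). The exon of Rab7-201 and Rab7-203 held 0.921% ± 0.336 in TCR+DMGV.

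**Figure D4:**
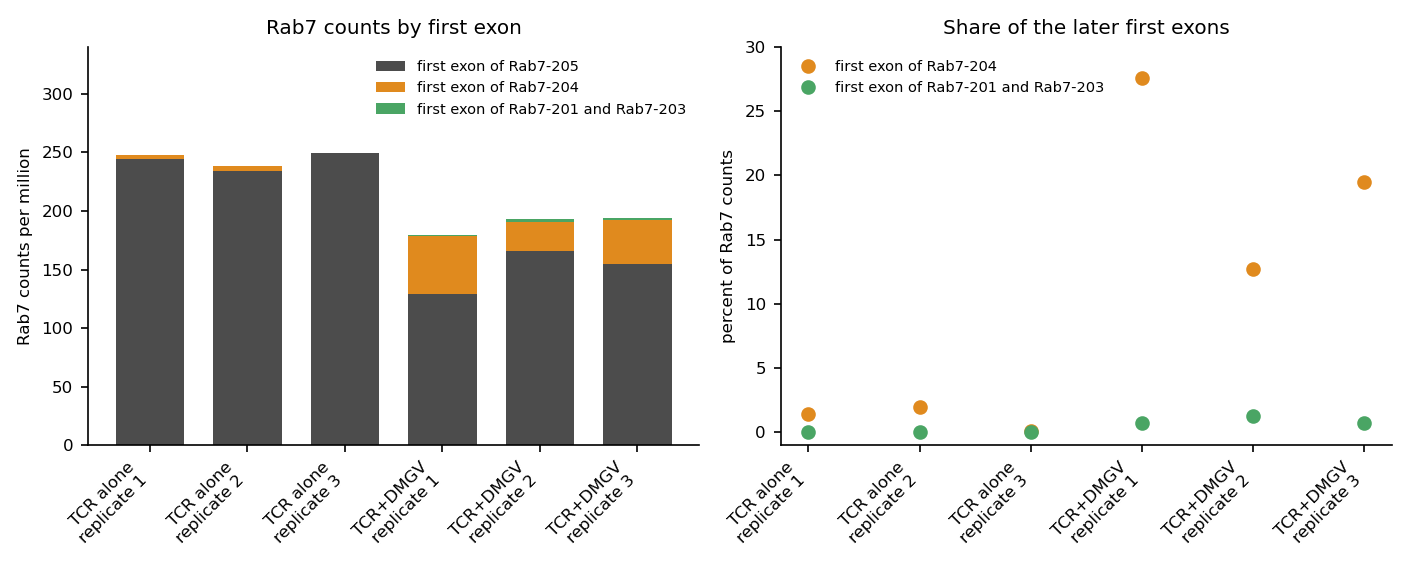
Left, Rab7 CPM in each sample, stacked by the first exon of the transcript (grey, that of Rab7-205; orange, that of Rab7-204; green, that of Rab7-201 and Rab7-203). Right, the share of Rab7 counts in the orange and green classes, where the orange points lie at 0.106% to 1.95% in TCR alone and at 12.7% to 27.6% in TCR+DMGV.

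Shifts in share were also found in other genes of these files. The share of the leading transcript did not overlap between the groups in 4 of 30 members with at least 2 transcripts with counts (Rab7, Rab3a, Rab8a and Rab37) and in 8.49% of 10041 genes of that kind. The mean share of Rab7-205 differed by 19.8 points between the groups, and 11.6% of these genes had a difference at least as large. Of the 30 members, 2 did, namely Rab7 itself and Rab3a, which had 26 to 69 counts per sample. Genes with few counts are included, and genes with both traits at counts as high as those of Rab7 were not counted. The median difference was 3.21 points over all these genes and 2.64 points over the members. None of the 97 tested Rab transcripts passed an adjusted p of 0.05 in edgeR, which called 0% of the 38401 tested transcripts. At an unadjusted p under 0.05, beside 3.22% of all transcripts, there were 6 Rab transcripts, 4 higher and 2 lower in TCR+DMGV.

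The 6 were Rab7-201, Rab7-204, Rab5c-201 and Rab8a-202, which were higher, and Rab7-205 and Rab4b-203, which were lower. Rab5c-201, which has a coding sequence of 705 bases where the leading Rab5c-202 has 651, had 415, 347 and 605 counts in the TCR alone samples and 861, 828 and 645 in the TCR+DMGV samples. Rab8a-202 and Rab4b-203 are annotated with a retained intron and had few counts. Rab8a-202 had 5, 6 and 6 counts in the TCR alone samples and 14, 12 and 29 in the TCR+DMGV samples, and Rab4b-203 had 26, 32 and 16 counts in the TCR alone samples and 8, 6 and 8 in the TCR+DMGV samples.

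Of the 43 tested members, 12 had at least 2 transcripts that each held 10% or more of the counts, and 26 had 1 transcript with 90% or more. The division was unsteady between replicates in several. Rab40c-207 and Rab40c-201, which have the same coding sequence and start 62 bases apart, took turns as the leading transcript of Rab40c. Rab40c-207 had 70, 373 and 289 counts in the TCR alone samples and 419, 112 and 58 in the TCR+DMGV samples, and Rab40c-201 had 264, 1 and 32 counts in the TCR alone samples and 0, 290 and 329 in the TCR+DMGV samples. Replicates of 1 group thus differed by up to 79.6 points in the share of Rab40c-207. In Rab6a, transcript Rab6a-201 had 1405, 1308 and 1725 counts in the TCR alone samples and 1698, 1556 and 1478 in the TCR+DMGV samples. Rab6a-202, whose coding sequence has the same 627 bases in length but differs in letters, had 839, 740 and 562 counts in the TCR alone samples and 1285, 1574 and 522 in the TCR+DMGV samples. For Rab7-205 the range within a group was at most 14.0 points.

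**Figure D5:**
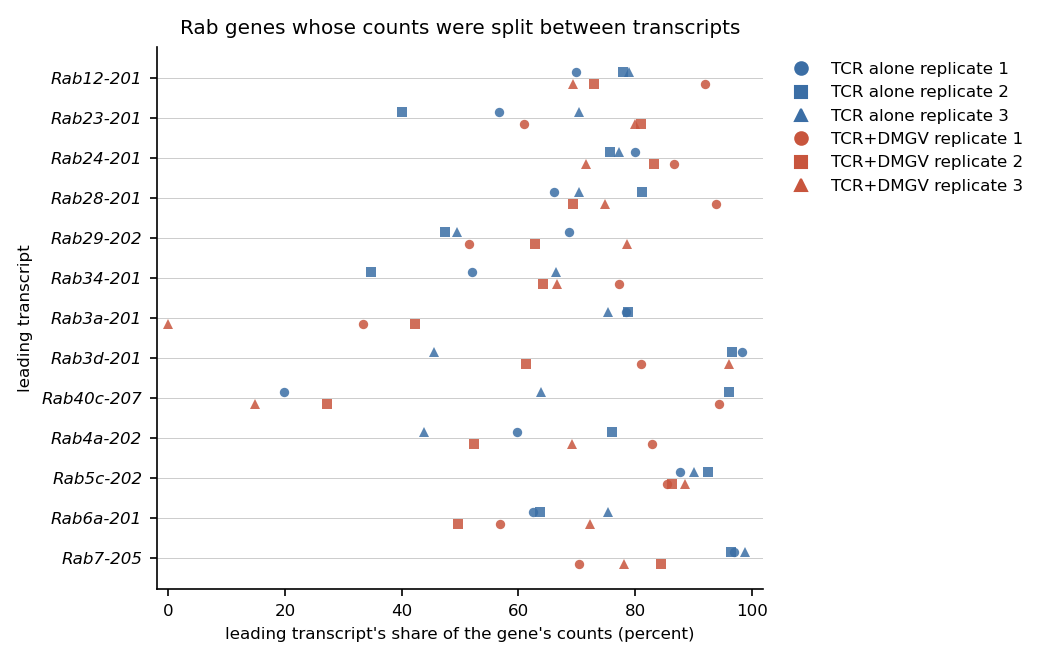
Share of the leading transcript in the gene's counts (percent) for the 12 Rab genes with at least 2 transcripts of 10% or more, and for Rab7, 1 point per sample (blue, TCR alone; red, TCR+DMGV). The points of Rab40c-207 run from 14.8% to 96.1%, and those of Rab7-205 in TCR+DMGV from 70.4% to 84.4%, below all its TCR alone points.

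The genes that lipidate, deliver and switch Rab proteins had median log2 fold changes near 0. Of 8 genes of prenylation and delivery, 8 were tested and 0 were called, with a median log2 fold change of 0.00. Rabac1, which helps place Rabs on Golgi membranes, was the 1 gene of the 8 with an unadjusted p under 0.05, beside 1.63% of all genes higher. It was at 51.7, 51.0 and 55.5 CPM in TCR alone and 60.7, 57.8 and 63.2 CPM in TCR+DMGV. Gdi2, a GDP dissociation inhibitor, had 337, 440.0 and 161 CPM in TCR alone and 180.3, 345 and 335 CPM in TCR+DMGV, with the same low samples as Rab8b. The Rab escort protein genes Chm and Chml, the geranylgeranyl transferase subunits Rabggta and Rabggtb, and Rabif overlapped between the groups, at log2 fold changes of 0.01, -0.22, 0.03, 0.02 and -0.01.

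Of 33 guanine nucleotide exchange factors, which load Rabs with GTP, 29 were tested, 12 had a log2 fold change above 0 and the median was -0.01. Mon1a, Mon1b and Ccz1, which form the exchange factor of Rab7, had log2 fold changes of 0.08, -0.01 and -0.08. Ccz1 was at 76.7, 85.1 and 76.7 CPM in TCR alone and 73.1, 76.5 and 76.3 CPM in TCR+DMGV. Dennd5a, an exchange factor of Rab39, was at 43.7, 44.6 and 46.5 CPM in TCR alone and 41.9, 40.9 and 37.8 CPM in TCR+DMGV (log2 fold change -0.16 ± 0.09, SE). These were the 2 of the 29 tested exchange factors whose groups did not overlap. Both were lower in TCR+DMGV, beside 3.94% of all tested genes lower in this sense, and nothing is read from the count. Of 36 GTPase-activating proteins, which switch Rabs off, 34 were tested, 12 had a log2 fold change above 0 and the median was -0.03. Tbc1d5 and Tbc1d15, which act on Rab7, had 0.08 and -0.03. Of 15 effectors of Rab7, 14 were tested, 9 had a log2 fold change above 0 and the median was 0.06. Vps39 and Vps41 of the HOPS tethering complex had log2 fold changes of 0.11 and -0.03, and Plekhm1 had -0.04. Fyco1, which links Rab7 to kinesin, was the 1 of the 14 without overlap, beside 4.92% of all tested genes higher in this sense. It was at 12.4, 11.5 and 11.8 CPM in TCR alone and 12.9, 15.8 and 13.3 CPM in TCR+DMGV (log2 fold change 0.23 ± 0.12, SE). Rilp, which links Rab7 to dynein, was not tested because it was listed at 0 FPKM in all but 1 sample, which had 0.101 FPKM. The 27 tested effectors of other Rabs had a median of 0.00, with 13 above 0, and the 16 lysosome genes one of -0.03, with 3 above 0. Over all tested genes 50.6% were above 0, and nothing is read from these counts. In these 5 lists no gene was called or reached an unadjusted p under 0.05, beside 1.63% of all genes higher and 1.56% lower at that p.

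The labelled cell type was checked by marker genes. The summed FPKM of 13 T cell markers was 2167 to 2544 in TCR alone and 2367 to 2625 in TCR+DMGV. Of these, 13 of 13 had a log2 fold change above 0, beside 50.6% of all tested genes. The 7 markers of activated T cells summed to 983 to 1097 FPKM and 1035 to 1100.3 FPKM. Markers of other cells were low. Those of B cells summed to 3.98 to 5.55 FPKM in TCR alone and 3.91 to 4.53 FPKM in TCR+DMGV, those of macrophages and monocytes to 2.75 to 4.30 FPKM and 2.73 to 3.83 FPKM, those of erythroid cells and platelets to 2.52 to 3.48 FPKM and 1.48 to 2.70 FPKM, and those of NK cells to 0.371 to 0.468 FPKM and 0.522 to 1.03 FPKM. All 6 neutrophil markers were at 0, as was the monocyte marker Cd14. The median log2 fold change was 0.13 over the T cell markers and 1.04 over 3 tested NK cell markers. It was -0.11 over 5 tested B cell markers, -0.19 over 4 of macrophages and monocytes and -0.73 over 2 of erythroid cells and platelets. The marker sets thus differed between the groups in both directions. The part of these cells in the levels of Rab genes was not tested, and in bulk RNA fewer cells that express a gene cannot be told apart from less RNA of it per cell.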

How the data were processed

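Reads were filtered with SOAPnuke, mapped with HISAT2 2.0.4 and quantified with StringTie by the authors. The submitters' processing notes name mm9, whereas 99.7% of the gene identifiers match GENCODE M21 (GRCm38), from which symbols and coordinates were taken. The deposited whole-number counts per gene and transcript are not normalized, and the step that made them from StringTie's output is not given in the sources used here. FPKM values, as the authors deposited them, scale for each sample's total and for a length per gene not given in these sources. Rab14, with 65.4 to 88.8 CPM and 88.5% of its counts in a transcript of 3081 bases, had a mean of 5.14 FPKM. Rab21, with 74.9 to 96.1 CPM and 99.2% in a transcript of 4602 bases, had 15.0 FPKM. The length is thus not always that of the leading transcript. The FPKM ranks, role shares, and paralogue folds and orders depend on it. Gene counts were fitted with edgeR 4.0.16 in R 4.3.3 (TMM, default filter, quasi-likelihood test, two-sided, Benjamini-Hochberg over all genes or transcripts tested, threshold 0.05). Counts per sample ranged from 37758725 to 43718867. With 3 against 3, the smallest p of an exact permutation test is 0.1. Transcript shares are of a gene's summed transcript counts. Of the 59 member identifiers, 50 have the same version in GENCODE M21. The fits were also run on simulated counts, which had no GC trend and only changes larger than that of Rab7. That run does not bear on the differences described here. Alternatives were DESeq2 1.42.0, RLE factors, no filter, summed transcripts, limma 3.58.1 on log2(FPKM + 1) or log2(FPKM + 0.1), a GC correction (loess, span 0.3), a replicate block and each sample left out.

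The members and lists were chosen with earlier results of these data known. Genes given by sample were Rab7, the 10 members of highest FPKM, the 5 largest fitted rises and falls at a mean log2 CPM above 1, members at an unadjusted p under 0.05, and genes of the 9 compared pairs whose number has no gene with 90% or more of its FPKM. Rab43, Rab39, Rab3a, Rab9 and Rab22a, the transcripts Rab8a-202 and Rab4b-203, and Rabac1, Fyco1 and Dennd5a were named after their values were seen. Coding ends and promoters were read from GENCODE M21 transcripts and RefSeq (GRCm38.p6).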

Additional observations from a re-analysis of the deposited data

How the results depend on the processing

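Rab7 kept its direction in all 15 alternative fits, with a log2 fold change from -0.40 to -0.35 when 1 sample was left out and -0.33 without both TCR alone replicate 3 and TCR+DMGV replicate 1. The number of members called was 1 in DESeq2, beside 14 of all genes. It was 0 in every other fit, including each fit without 1 sample, beside 0 to 12 of all genes. The number at an unadjusted p under 0.05 was 4 with the GC correction (Rab2b higher, Rab7, Rab27a and Rab37 lower), beside 3.88% of all genes. It was 1 without the 2 samples, beside 6.53% of all genes. Without any single sample it was 1 to 3, beside 2.42% to 7.30% of all genes. Fewer samples make overlap rarer. The number without overlap was 25 of 43 members (58.1%) without the 2 samples, beside 38.7% of all genes tested, and 7 to 18 without any single one, beside 15.9% to 28.4% of all genes, against 13.95% of members and 8.86% of all genes with the 6 samples. The 18 of 44 members and the 28.4% were found without TCR alone replicate 3. Nothing is read from these shares about the family. The median log2 fold change ran from -0.00162 to 0.0981 over the fits without 1 sample, and was 0.0981 without TCR+DMGV replicate 1. No member transcript was called in any fit, beside at most 1 of all transcripts.

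With no minimum FPKM, 18 of 20 paralogue pairs passed in place of 8 of 9. On counts per kilobase of the longest transcript, 8 of 10 passed, and Rab5a and Rab5b did not keep 1 order in every sample. With 5 samples the sign-flip test cannot go below 0.0625, and 1 gene was higher in 5 of 5 samples in 10 of 10 pairs without TCR alone replicate 1, in 7 of 8 without TCR alone replicate 2 and in 8 of 9 without each other sample. Within a group, where the test cannot go below 0.25, this held in 8 of 9 pairs in TCR alone and 9 of 9 in TCR+DMGV. Deviations of same-numbered samples from their group means correlated at -0.25, 0.17 and -0.22. Those of TCR alone replicate 3 and TCR+DMGV replicate 1, the samples that shared the GC trend, correlated at 0.42. Such a trend can hide a pairing, so these values cannot tell whether replicate numbers pair the samples. With a replicate block 0 members and 0 of all genes were called, and the log2 fold change of Rab7 was -0.38. At an unadjusted p under 0.05 there were 2 members, beside 2.30% of all genes. Few counts limit Rab3a, Rab39 and the 10 members below the filter, and the division between transcripts is an estimate whose error is not known.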
